A study of Homo sapiens with 8 samples.

Results

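Heparan sulfate is a long, negatively charged sugar chain that cells attach to core proteins such as syndecans and glypicans. The EXT1 and EXT2 polymerases build the chain on a short linker, after which NDST, GLCE, HS2ST1 and HS6ST enzymes modify it step by step. The pattern of sulfate groups decides which growth factors and matrix proteins the chain holds, and heparanase (HPSE) cuts the chain outside the cell. In squamous epithelium syndecans sit at the surface of the keratinocytes, where they act as co-receptors for growth factors and in adhesion to matrix.

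The mRNAs followed here were those of 10 genes: the modifying enzymes HS2ST1, HS6ST1, NDST1 and GLCE, the polymerases EXT1 and EXT2, heparanase, and the core proteins SDC1, SDC4 and GPC1. Every probe whose RefSeq transcript accession belonged to one of these genes was taken, which gave 11 of the 42405 probes other than controls and 10 of the 20249 genes named on the array. HS2ST1 had 2 probes, for separate transcripts, and each other gene had 1. The genes were selected on their values in the comparison of the siRNA groups, in particular the opposite differences at the HS2ST1 probes. The values of these 11 probes in that comparison are therefore a description, with no test.

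The cells were KYSE850, an established human cell line of esophageal squamous cell carcinoma. One-colour Agilent arrays were hybridised with the RNA of 8 samples, 4 from cells given control siRNA and 4 from cells given KHSRP siRNA. KHSRP encodes an RNA-binding protein that acts in splicing, mRNA decay and miRNA maturation, and the study asked what its silencing does in these cells. The study had several KHSRP siRNAs, and the labels do not say which one an array represents, nor whether the 4 arrays of a group came from separate cultures. The p-values below therefore measure the spread between these arrays, which may be technical.

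All levels are log2 signals relative to the 75th percentile of the array, so that a probe at that percentile has a level of 0. Probes differ in how brightly they bind, so no level of one probe was read as higher or lower than that of another. On each array 19145 to 20938 probes were well above background, no spot was saturated, and the level of the dimmest probe well above background was between -4.55 and -3.74. The arrays filled 2 slides, the first with replicates 1 and 2 of each group and the second with replicates 3 and 4.

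KHSRP itself was lower on every KHSRP siRNA array. At probe A_23_P16157 the level was 6.03, 5.81, 6.39 and 6.08 on control siRNA replicates 1 to 4 and 2.52, 2.58, 2.88 and 2.85 on KHSRP siRNA replicates 1 to 4. The difference was -3.37 (SE 0.16, limma adjusted p = 5.95e-05), which left 9.66% of the control signal. The exact permutation test over arrays gave p = 0.0286 (two-sided), the smallest that 4 arrays against 4 allow. A second probe, A_24_P134235, was well above background on 4 control arrays and 0 KHSRP siRNA arrays. Its difference was -2.67 (SE 0.47, limma adjusted p = 0.0147), a size that rests on dim readings. The probe was 5.83-fold lower with KHSRP siRNA where a dimmer signal is set to the lowest one above background on its array.

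The cells carried squamous markers. Of 10 genes listed as squamous epithelial 9 were measured, among them the basal keratins KRT5 and KRT14, and KRT4 was above background on no array. Of 10 markers of leukocytes, endothelium, fibroblasts and muscle 3 were measured (CD68, COL1A1 and DES), and PECAM1, VWF, COL1A2, DCN and PDGFRB were above background on none. The leukocyte markers CD3E and PTPRC were too dim to test, although each had a probe above background on some arrays. CD3E was above background on 2 control and 3 KHSRP siRNA arrays, and PTPRC probe A_33_P3364808 on 2 arrays of each group. The other PTPRC probes were above background on no array.

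HS2ST1, which adds sulfate to the 2-O position of uronic acids in the chain, was read by one probe for each of 2 transcripts. Probe A_24_P242361, for NM_012262, had levels of -1.80, -1.32, -1.62 and -0.73 on control siRNA replicates 1 to 4. On KHSRP siRNA replicates 1 to 4 it had -2.87, -4.13, -3.16 and -3.37. All 4 KHSRP siRNA arrays lay below all 4 control arrays. The control arrays averaged -1.37 ± 0.47 (SD, n = 4) and the KHSRP siRNA arrays -3.38 ± 0.53 (SD, n = 4), a difference of -2.01 (SE 0.31). This probe was well above background on all 4 control arrays but on only 1 KHSRP siRNA array, replicate 1, so the levels of the other KHSRP siRNA arrays, and with them the size of the difference, rest on dim readings near background.

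The other HS2ST1 probe, A_33_P3269069 for NM_001134492, differed in the opposite direction. Its levels were -1.52, -1.20, -1.44 and -1.55 with control siRNA and -0.54, -0.46, -0.92 and -0.77 with KHSRP siRNA. The KHSRP siRNA arrays lay above all control arrays, and every array was well above background for this probe. The control arrays averaged -1.43 ± 0.16 (SD, n = 4) and the KHSRP siRNA arrays -0.67 ± 0.21 (SD, n = 4), a difference of 0.76 (SE 0.14), or 1.69-fold higher.

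On each array, the level of the NM_001134492 probe minus that of the NM_012262 probe does not depend on the scaling between arrays, and was compared between arrays only, since its value on a single array also depends on how each probe binds. It was 0.28, 0.12, 0.18 and -0.82 on the control arrays and 2.34, 3.67, 2.24 and 2.60 on the KHSRP siRNA arrays. All KHSRP siRNA arrays lay above all control arrays. Of the KHSRP siRNA values, that of replicate 1 (2.34) had both probes well above background, and those of the other KHSRP siRNA arrays, like the difference of 2.77 between the group means, rest on the dim NM_012262 readings. The opposite directions were present on each slide: the NM_012262 probe differed by -1.94 on the first and -2.09 on the second, and the NM_001134492 probe by 0.86 and 0.65. Normexp background correction with an offset, followed by quantile normalization, gave smaller differences of -0.54 and 0.35. The direction at each of the HS2ST1 probes was the same under every alternative that gave a value. The files do not give the probes' positions within the transcripts, and a probe reports only the RNA it binds, so no total for the gene was formed.

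**Figure D1:**
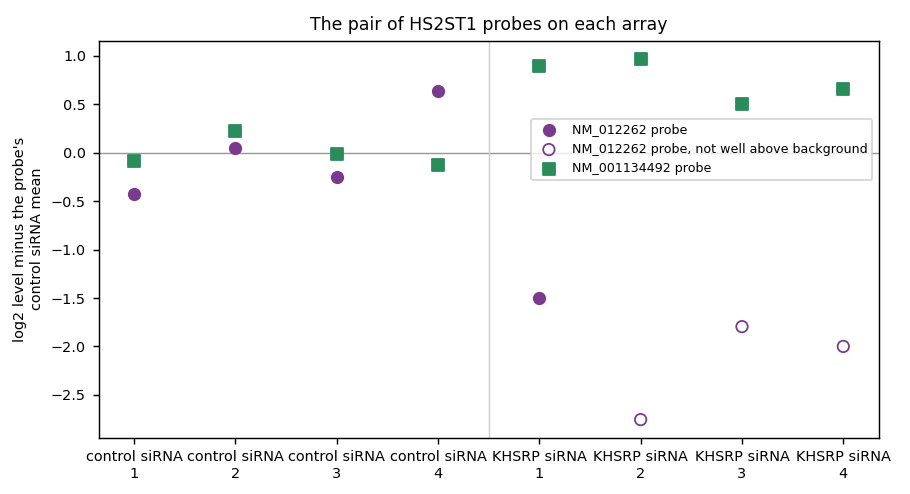
The pair of HS2ST1 probes on the 8 arrays. The vertical axis is the log2 level minus the mean of the 4 control siRNA arrays of the same probe, circles are the NM_012262 probe and squares the NM_001134492 probe, and open circles are arrays on which the probe was not well above background. On the KHSRP siRNA arrays the squares lie 0.51 to 0.97 above the control mean and the circles between -1.50 and -2.76 from it.

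The probes of other genes whose profiles over the 8 arrays came closest to each HS2ST1 probe were found by the root mean square difference after each profile was centred on its own mean. Among 15486 probes, those nearest to the NM_012262 probe were of EIF4EBP2 (a repressor of cap-dependent translation; 0.34 log2 units), DPYSL5 (0.36) and SGTB (0.39). Those nearest to the NM_001134492 probe were of NADK (NAD kinase, which makes NADP; 0.10), LYRM9 (0.12) and ADGRG1 (an adhesion G protein-coupled receptor; 0.12). EIF4EBP2 had a mean of 3.96 with control siRNA and 2.06 with KHSRP siRNA, and NADK had 1.44 and 2.21.

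Among the other enzymes that modify the chain, NDST1, which replaces N-acetyl groups with N-sulfate and so opens the chain to later steps, had levels of 3.46, 3.41, 3.33 and 3.42 with control siRNA. With KHSRP siRNA they were 3.62, 3.95, 3.82 and 3.57. The groups did not overlap, and the difference was 0.33 (SE 0.12). HS6ST1, which sulfates the 6-O position of glucosamine, had levels of 2.25, 2.35, 2.23 and 2.43 against 2.58, 2.65, 2.66 and 2.47. Its groups were also apart, by 0.28 (SE 0.10), with the lowest KHSRP siRNA array only just above the highest control array. GLCE, the epimerase that turns glucuronic into iduronic acid and so makes the substrate that HS2ST1 prefers, had levels of -0.79, -1.42, -0.38 and -1.42 against -1.27, -2.01, -1.49 and -1.41. The GLCE groups overlapped, and the difference was -0.54 (SE 0.27).

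The probes of the polymerase subunits did not spread alike over the arrays. EXT2 had levels of 3.12, 2.93, 2.99 and 2.91 with control siRNA and 3.28, 3.27, 3.11 and 3.34 with KHSRP siRNA. One control array reached above the lowest KHSRP siRNA array, and the difference was 0.26 (SE 0.11). EXT1 had levels of 1.30, 0.48, 1.50 and 0.00 against 1.51, 0.53, 0.14 and 1.59. Its arrays ranged over 1.59 log2 units within and across both groups, and the groups differed by 0.12 (SE 0.43). EXT1 was high on 2 arrays of each group and low on the other 2, whereas the EXT2 levels within a group lay within 0.23 of each other.

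HPSE, the enzyme that cuts heparan sulfate chains in the matrix, had levels of 0.05, 0.08, -0.19 and -0.32 with control siRNA and -0.60, -0.46, -1.01 and -0.75 with KHSRP siRNA. All KHSRP siRNA arrays were below all control arrays, by -0.61 in the mean (SE 0.16), or 1.53-fold. The HPSE difference was -0.60 on the first slide and -0.63 on the second.

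SDC4, a syndecan found at focal adhesions, is the core protein with the largest difference of the 3. Its levels were 3.78, 3.48, 3.52 and 3.54 with control siRNA and 4.58, 4.05, 3.82 and 4.40 with KHSRP siRNA. The groups were apart, by 0.63 (SE 0.18), or 1.55-fold higher with KHSRP siRNA. The study listed SDC4 among the predicted targets of miR-130b and miR-301a that were up-regulated on these arrays, so its direction here is not independent of that list. The mature forms of these miRNAs are shown because they share the seed (bases 2 to 8, in capitals) through which a miRNA pairs with its targets. They are printed 5′ to 3′ from the RefSeq annotation of GRCh38.p14, where miR-130b-3p lies at chr22:21653354-21653375 on the plus strand and miR-301a-3p at chr17:59151149-59151171 on the minus strand.
hsa-miR-130b-3p: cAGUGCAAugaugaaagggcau
hsa-miR-301a-3p: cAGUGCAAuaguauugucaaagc

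SDC1, the syndecan typical of stratified epithelium, had levels of 4.91, 4.41, 5.16 and 3.97 with control siRNA and 4.99, 4.33, 3.94 and 5.06 with KHSRP siRNA. The means were within 0.03 of each other (difference -0.03, SE 0.33), although single arrays of the same group differed by more than 1 log2 unit. GPC1, a glypican held to the membrane by a lipid anchor, had levels of 5.49, 5.23, 5.50 and 4.83 against 5.77, 5.39, 5.16 and 5.82. Its groups overlapped, with a difference of 0.27 (SE 0.21).

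**Figure D2:**
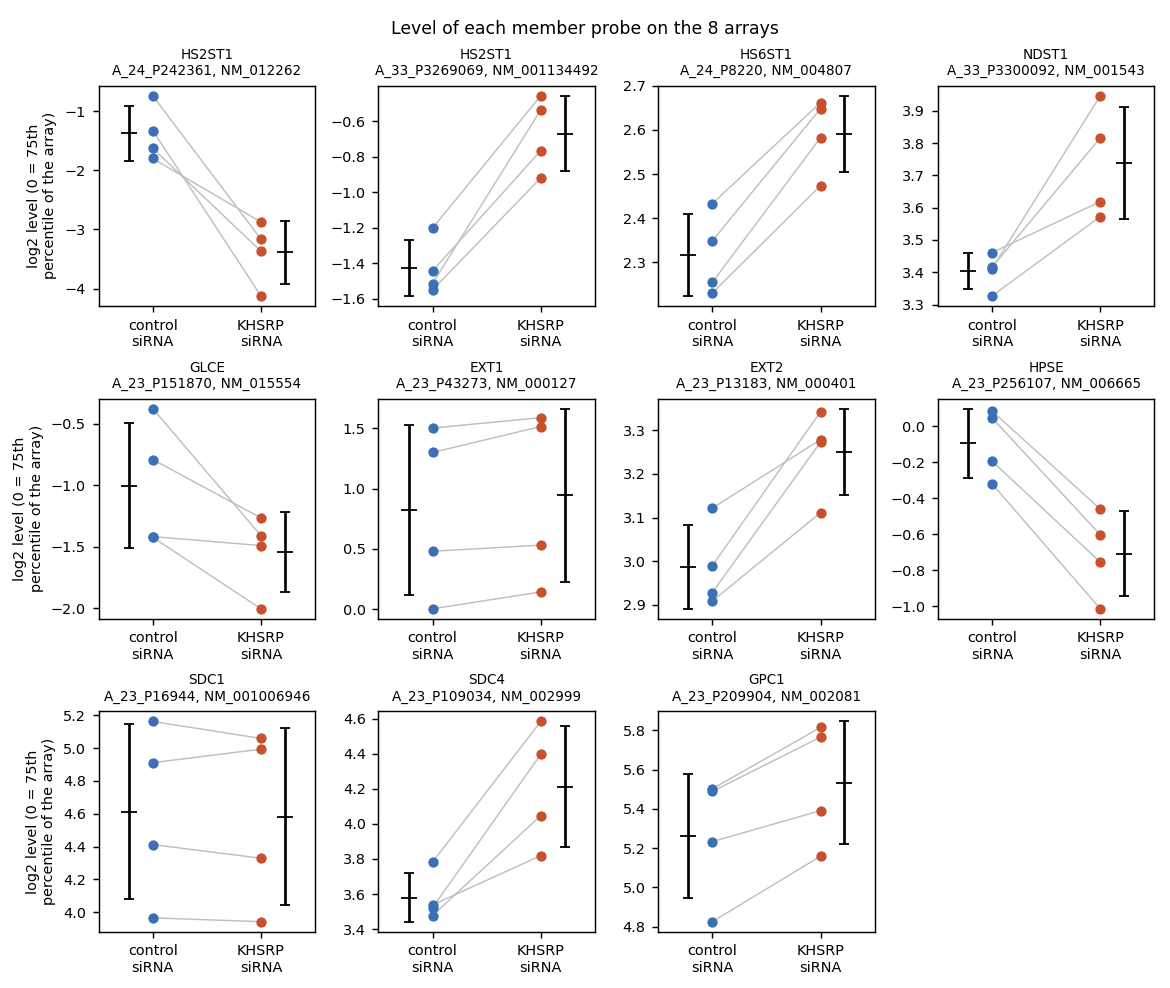
Level of each of the 11 probes on the 8 arrays. The vertical axis is the log2 level relative to the 75th percentile of the array and differs between panels, points are arrays, bars beside them are the mean and SD of 4 arrays, and grey lines join arrays that carry the same number in the series matrix. The groups are apart for HS2ST1 (in opposite directions), HS6ST1, NDST1, HPSE and SDC4, and the lines of SDC1 and EXT1 are nearly flat.

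Over the 11 probes, 7 had a higher mean with KHSRP siRNA and 4 a lower one, and the median difference was 0.26, against 0.01 over all 18761 probes tested. The groups did not overlap at 6 probes, 4 higher and 2 lower, where 14.8% of all tested probes had groups apart (6.09% higher and 8.69% lower). At an adjusted p under 0.05 in limma, 2 of the 11 probes were called, both of HS2ST1, beside 5.54% of all tested probes (1.92% higher and 3.62% lower). Since the siRNA comparison was used to choose the genes, nothing is read from these counts.

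The numbers that the deposited series matrix gives the arrays pair them differently from the titles, with KHSRP siRNA replicates 3 and 4 exchanged, and arrays of the same matrix number deviated together in all 4 pairs. Within these pairs 7 of the 11 probes were higher with KHSRP siRNA in every pair and 3 were lower in every pair. The exception was SDC1, which differed by 0.08, -0.08, -0.10 and -0.02. EXT1 was higher in all 4 pairs by 0.05 to 0.21, and GPC1 by 0.16 to 0.33. HS6ST1 was higher by 0.23 to 0.33, and HPSE was lower by 0.55 to 0.69. With the pair as a block, 9 of the 11 probes were called, all but SDC1 and EXT1, beside 30.1% of all tested probes. The counts within the pairs and with the pair as a block use the same comparison that chose the genes. The pairs were also chosen from these same data. The share of all tested probes with the same sign in every pair was not computed, so nothing is read from either count.

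SDC1, EXT1, GPC1 and GLCE had the same 4 arrays at the top: control siRNA replicates 1 and 3 and KHSRP siRNA replicates 1 and 4. For GLCE this was a near tie, with KHSRP siRNA replicate 4 at -1.41 and control siRNA replicates 2 and 4 at -1.42. These arrays include 2 of each group. For each of the 4 genes the range within either group was wider than the difference between the group means. By series matrix number these 4 arrays form whole pairs, so the order is a difference between pairs. Control siRNA replicate 1 goes with KHSRP siRNA replicate 1, and control siRNA replicate 3 with KHSRP siRNA replicate 4. The order was not particular to the heparan sulfate genes, since 11.2% of all 18760 probes with a value on every array were highest on the same 4 arrays and 14.4% were lowest there. Of the 9 genes measured from the squamous epithelial list, 6 were highest on those arrays (KRT5, KRT14, KRT6A, TP63, DSG3 and SFN) and 1 was lowest there (EPCAM). KRT5 had levels of 5.84, 4.30, 5.84 and 3.11 with control siRNA and 5.92, 4.46, 2.92 and 5.98 with KHSRP siRNA. The summed linear signal of the 9 markers, in multiples of the 75th percentile, was 193 to 532 on control arrays and 219 to 605 on KHSRP siRNA arrays. Such a sum follows the brightest probe most, here SFN (levels of 7.03 to 8.37), so it does not weigh the 9 markers alike. Of the markers of other cell types, CD68 was highest and COL1A1 lowest on those arrays, and the summed signal of the 3 that were measured was 2.24 to 4.67 and 2.41 to 5.68. The part of these markers in the SDC1, EXT1, GPC1 and GLCE levels was not tested. In such bulk RNA, fewer cells of a type and less RNA per cell cannot be told apart.

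**Figure D3:**
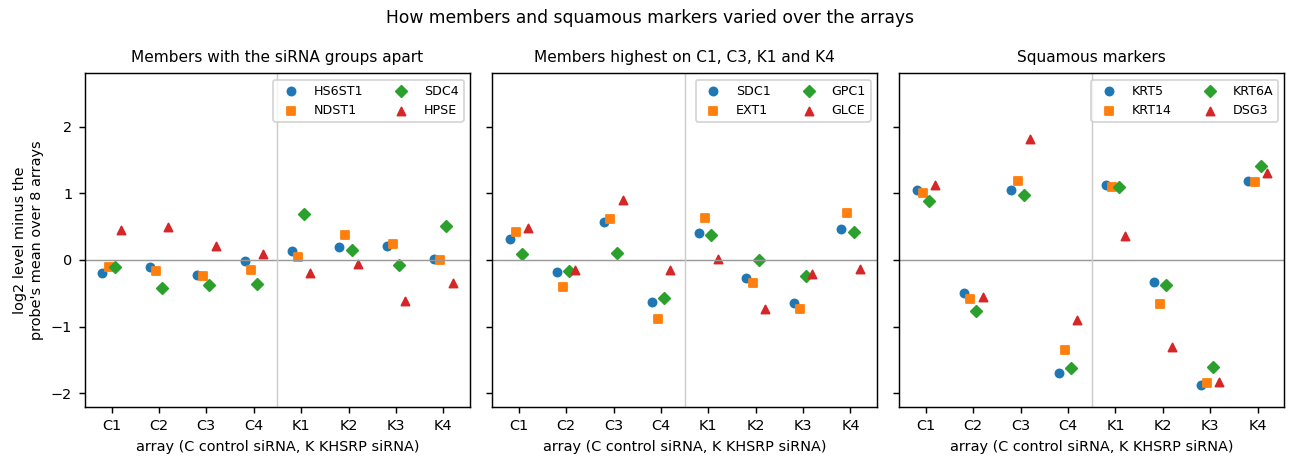
Levels over the 8 arrays of 8 heparan sulfate probes and 4 squamous markers. The vertical axis is the log2 level minus the probe's own mean over the 8 arrays, and arrays are given as C1 to C4 (control siRNA) and K1 to K4 (KHSRP siRNA). In the left panel the points step between C4 and K1. In the other panels C1, C3, K1 and K4 are high and C2, C4, K2 and K3 low, with KRT5 from 2.92 to 5.98 before centring. GLCE shows this less clearly, since its K4 point is nearly level with C2 and C4.

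Slide was balanced over the siRNA groups, so its effect on these probes could be tested. In limma with group and slide as terms, 0 of the 11 probes were called, beside 0% of all tested probes. The smallest adjusted p was 0.289, for HPSE, which was lower on the second slide by 0.34 (SE 0.10). HPSE was also the only one of the 11 with an unadjusted p under 0.05, against 2142 of the 18761 probes tested.

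The other genes of the pathway were not used to choose these genes, and were tested. Their lists were still drawn up with earlier results of these data known. They include XYLT2, which the study had listed as up-regulated on these arrays, so the counts are not independent of the data. Of 57 such genes 55 had a probe and 38 were bright enough, and the probe with the highest mean stood for a gene. At an adjusted p under 0.05 in limma, 7 were higher and 1 lower with KHSRP siRNA, where 6.19% of all 12125 tested genes were called, 2.14% higher and 4.06% lower. Of the 38, 28 had a positive difference, and their median was 0.13 against 0.01 over all genes. At an unadjusted p under 0.05 there were 14. With the pair as a block 18 were called, 13 higher and 5 lower, beside 33% of all genes. With a block by title numbers 0 of the 38 were called.

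The linker that joins the chain to its core protein is made by a short series of enzymes. XYLT2, which adds the xylose that starts it, rose by 0.79 (SE 0.14, adjusted p = 0.0171). Its control arrays averaged 3.98 ± 0.22 and its KHSRP siRNA arrays 4.77 ± 0.15 (SD, n = 4). The study had listed XYLT2 among the targets of miR-301a on these arrays, so this gene is not independent evidence. Of 6 linker genes tested 1 was called and 5 had positive differences. The largest was at B3GALT6, which adds the second galactose (0.94, SE 0.24, adjusted p = 0.0632). Its adjusted p was 0.0027 with the pair as a block and 0.182 with a block by title numbers. The xylosyltransferase XYLT1 was too dim to test.

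EXTL3, the transferase that commits the linker to a heparan sulfate chain, rose by 0.76 (SE 0.12, adjusted p = 0.0101). Its levels were 3.77, 3.74, 3.95 and 4.02 with control siRNA and 4.53, 4.66, 4.80 and 4.51 with KHSRP siRNA, with the groups apart. Of the 4 further sulfotransferases tested, 0 were called in limma, 0 had an unadjusted p under 0.05, and the methods' t-test gave 0 at either level. The largest differences were at HS3ST3B1 (-0.32, SE 0.67) and HS3ST1 (-0.20, SE 0.49), whose arrays were spread in the order of SDC1 or its reverse. The extracellular sulfatase SULF2, which removes 6-O sulfate, differed by 0.26 (SE 0.44, adjusted p = 0.838).

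Of 6 further core proteins tested 1 was called. HSPG2, which encodes perlecan of the basement membrane, rose by 0.72 (SE 0.11, adjusted p = 0.0073), with levels of 3.74, 3.75, 3.57 and 3.50 against 4.42, 4.38, 4.30 and 4.35. All 6 had positive differences, and the largest was that of the syndecan SDC3 at 0.86 (SE 0.33, adjusted p = 0.195). The SDC3 adjusted p was 0.0024 with the pair as a block and 0.33 with a block by title numbers. A dimmer SDC3 probe for the same accession, A_33_P3241884, did not pass the filter. It had means of -2.98 with control siRNA and -2.92 with KHSRP siRNA, so the difference of 0.86 was not seen there. SDC2 was too dim to test, so the syndecan family was read through SDC1, SDC3 and SDC4.

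Sulfation needs the donor PAPS and its transport into the Golgi. SLC35B2, a PAPS transporter, rose by 0.49 (SE 0.10, adjusted p = 0.0317), the only called gene of the 8 tested for precursor supply. UGP2, which makes UDP-glucose, differed by 0.43 (SE 0.50), and control siRNA replicate 2 stood at -0.45 where the other control arrays were at 1.61 or above. Without that array the UGP2 difference was -0.12.

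Of 7 lysosomal enzymes that take heparan sulfate apart, 2 were called, both higher. NAGLU, an N-acetylglucosaminidase, rose by 0.68 (SE 0.11, adjusted p = 0.0127). IDS, the sulfatase that removes the 2-O sulfate from iduronic acid, rose by 0.73 (SE 0.14, adjusted p = 0.0222) at its brighter probe, and differed by 0.41 (adjusted p = 0.157) at the other. GUSB, the lysosomal glucuronidase, had a difference of 0.81 (SE 0.21, adjusted p = 0.0655). Its adjusted p was 0.0022 with the pair as a block and 0.189 with a block by title numbers.

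Among proteins that bind the syndecan tail inside the cell, 4 were tested. CASK, a scaffold kinase of the membrane, fell by 1.13 on the log2 scale (SE 0.14, adjusted p = 0.0034) at probe A_32_P168464. Its levels there were 0.08, 0.15, 0.52 and 0.19 with control siRNA and -0.81, -1.09, -0.91 and -0.78 with KHSRP siRNA. A dimmer CASK probe for the same accession, A_24_P288722, differed by -0.24 (SE 0.31, adjusted p = 0.772), so the probes of CASK disagreed in size. GIPC1, an adaptor in endocytosis, rose by 0.57 (SE 0.11, adjusted p = 0.0213).

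Chondroitin and dermatan sulfate are built on the same linker by another set of enzymes. Of 16 such genes 13 were tested, and 2 were called, both lower, beside 6.19% of all 12125 tested genes (2.14% higher and 4.06% lower). There were 5 positive and 8 negative differences, with a median of -0.11. CHSY1, a chondroitin polymerase, fell by 0.98 on the log2 scale (SE 0.15, adjusted p = 0.0097), from levels of 3.54, 3.93, 3.77 and 3.92 to 2.55, 2.79, 3.11 and 2.82. CHPF2, a chondroitin polymerising factor, fell by 0.87 (SE 0.20, adjusted p = 0.0404), and this call was lost with the slide as a block (adjusted p = 0.0536). DSEL, a dermatan epimerase gene that the study listed as a target of miR-130b and miR-301a, was too dim to test: 1 of its probes was above background on no array and the other on 2 KHSRP siRNA arrays. With the pair as a block 4 of the 13 were called, all lower, beside 33% of all genes, and with a block by title numbers 0.

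All 10 called genes of both branches had their groups apart and the same direction on each slide and in each pair. The calls were made on these same arrays, and a call favours such a result, so it is no separate support for them. Not all of these calls were firm, although each gene kept its sign under the 20 alternatives tried. The CASK call was lost under 1 of them, EXTL3 and CHSY1 under 2, HSPG2 and NAGLU under 3, XYLT2 under 4, IDS under 7, GIPC1 under 9, SLC35B2 under 10 and CHPF2 under 13. The largest adjusted p ran from 0.0521 for CASK to 0.202 for GIPC1. When single arrays were left out, XYLT2 was lost without control siRNA replicate 1 or 2 (0.0643 and 0.0581), and IDS without control siRNA replicate 1, 2 or 4 or KHSRP siRNA replicate 2 (up to 0.0782). SLC35B2 was lost when any array other than KHSRP siRNA replicate 1 was left out (up to 0.107), CHPF2 when any other than control siRNA replicate 4 was (up to 0.110), and GIPC1 when any other than replicate 4 of either group was (up to 0.0734). EXTL3, HSPG2, NAGLU, CASK and CHSY1 stayed below 0.05 without any single array.

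**Figure D4:**
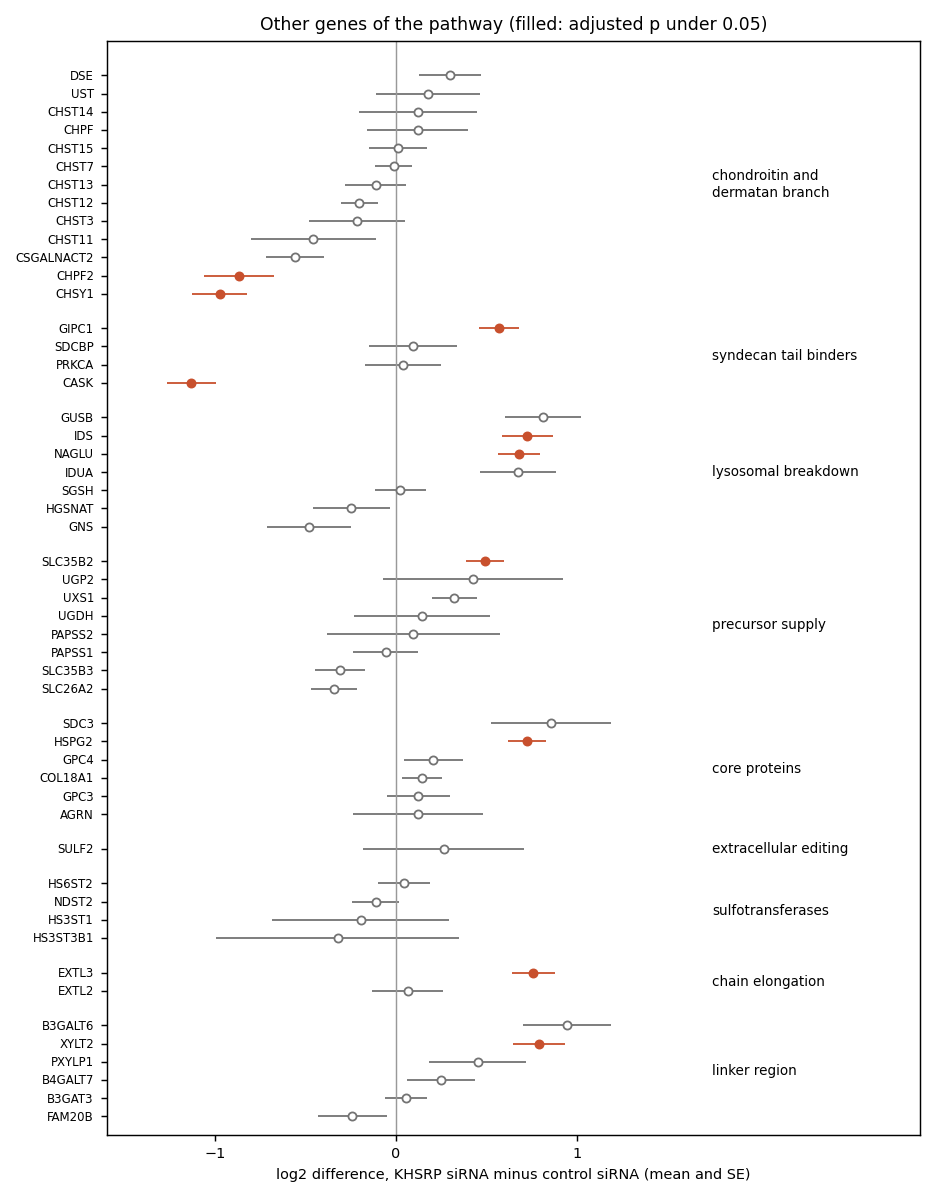
Differences of the other genes of the pathway. The horizontal axis is the log2 difference of KHSRP siRNA minus control siRNA, points and bars are the limma estimate and its SE (4 arrays a group), and filled points had an adjusted p under 0.05. The called genes of the heparan sulfate branch lie to the right of 0 but for CASK at -1.13, and CHSY1 and CHPF2 of the chondroitin branch lie to the left.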

How the data were processed

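The authors extracted each spot of 8 Agilent arrays (8 x 60k) with Feature Extraction (version 11.5.1.1 per the file headers, 12.6 in the submitters' processing notes), and the deposited scanner values are linear fluorescence intensity, background-subtracted and not scaled between arrays. The labels and the methods name different RNA kits. The authors' series matrix holds log2 values; its differences between arrays matched those of the 75th-percentile-scaled scanner values (r = 1), except that the columns of KHSRP siRNA replicates 3 and 4 matched each other's scanner values. Its baseline per probe is unknown, and it was used as an alternative only.

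Outlier spots and controls were left out, log2 signals were averaged per probe, and the 75th percentile of each array was subtracted. Probes with at least 0.5 of their spots well above background on all 4 arrays of a group were tested (18761). Symbols came from RefSeq accessions (GRCh38.p14), for 27241 probes (64.2%), and no coordinates of genes were used, since the files name no build. The siRNA comparison was fitted by limma 3.58.1 under R 4.3.3 (two-sided, no block, Benjamini-Hochberg over all tested probes), and exact tests used scipy 1.17.1. Array number limits the precision. On simulated data of the KHSRP siRNA comparison with 18760 probes, 60% of probes changed by 1 log2 unit and 94% of those changed by 2 were recovered, with 10 false calls. The simulated noise was independent between probes and arrays, without the deviations that the real arrays share. These shares may therefore not hold for the real arrays.

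Deviations from the group means correlated at 0.52, 0.43, -0.67 and -0.64 for arrays of the same title number, and at 0.52, 0.43, 0.83 and 0.84 for arrays of the same series matrix number, so the second numbering was taken as pairs. The labels do not say that the arrays were paired. The p-values with the pair as a block therefore rest on a pairing chosen from these same data.

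The genes and lists were chosen with earlier results of these data known. Named were all probes of the 10 genes, called genes of the other lists, the 2 largest differences in lists of 3 or more tested genes, the 3 profiles nearest each HS2ST1 probe, and XYLT2 and DSEL. Alternatives changed the scaling, background correction, filter, source, block, weights, variance model, probe choice and test, and left out each array.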

Additional observations from a re-analysis of the deposited data

Results flagged for a closer look

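Single arrays were set against the rest of their group for the 11 probes, the named genes and KHSRP, in 56 groups of 4 arrays. An array was picked out where its gap to the nearest array exceeded Dixon's critical share of the range of the group, which chance gives in about 1 of 20 groups, and 2 were found, none of them among the 11 probes. SLC35B2 was at 2.37 on KHSRP siRNA replicate 1, below the next array at 2.56, and its difference was 0.54 without that array (adjusted p = 0.0454). UGP2 was at -0.45 on control siRNA replicate 2, below the next array at 1.61, and its difference of 0.43 became -0.12 without it (adjusted p = 0.871).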

How the results depend on the processing

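The KHSRP difference stayed past the threshold under all 20 alternatives (-3.46 to -3.22). Of the 11 probes, 2 were called, against 1 with median scaling, normexp correction, no filter on dim probes or the filter on all 8 arrays, 0 with the replicate block by title numbers, 9 with the replicate block by series matrix numbers and 7 by the methods' t-test unadjusted; leaving out single arrays gave 1 (without control siRNA replicate 1, 3 or 4 or KHSRP siRNA replicate 1 or 2) to 3. The shift between the HS2ST1 probes was 2.77, 0.88 with normexp correction, and 2.45 to 2.93 without single arrays. Pathway genes called were 8, against 3 with median scaling, 1 without the filter, 0 and 18 with the replicate block by title and by matrix numbers, 14 by the unadjusted t-test, and 4 to 7 without single arrays (4 without control siRNA replicate 1 or 2, 5 without KHSRP siRNA replicate 2). Chondroitin genes called were 2, against 1 with median scaling, the detected-probe percentile, normexp or the adjusted t-test, 0 without the filter, 0 and 4 with the replicate block by title and by matrix numbers, 4 by the unadjusted t-test, and 1 to 2 without single arrays (2 only without control siRNA replicate 4). By slide, 0 of the 11 probes were called, 1 with median scaling, and 0 without any single array. No called siRNA difference turned sign. Without single arrays EXT1 was -0.15 to 0.39 (below 0 without replicate 4 of either group or replicate 1 of the KHSRP siRNA group) and SDC1 was -0.25 to 0.18 (above 0 without replicate 1 of the control group, replicate 2 of the KHSRP siRNA group or replicate 3 of either, and also 0.0027 with quantile normalization), so neither has a settled sign. The small slide differences of HS6ST1, GLCE, EXT1, SDC1 and GPC1 also turned under some alternatives. Without single arrays HS3ST3B1 was -0.77 to 0.14 (above 0 without control siRNA or KHSRP siRNA replicate 3), HS3ST1 was -0.55 to 0.15 (above 0 without control siRNA or KHSRP siRNA replicate 4), and UGP2 was -0.12 (without control siRNA replicate 2) to 0.69. The cause of these changes was not tested. Dim probes limit the HS2ST1 NM_012262 reading.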
